A study of Mus musculus with 4 samples.

Results

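A set of 9 noncoding RNAs were described: Rn7sk, Rn7s1, Rn7s2, Rmrp, Rpph1, Terc, Rny1, Rny3 and Vaultrc5. They were picked by gene symbol from a table of 52550 genes, with earlier results of these data known. Most are made by RNA polymerase III and are needed in every cell type, whereas Terc, the telomerase RNA, is made by RNA polymerase II. The study used retinas of wild-type C57BL/6 mouse pups at P0, the day of birth, which were dissociated with papain. An antibody against YTHDF2 was used for RNA immunoprecipitation (RIP), and the immunoprecipitated RNA was sequenced next to the input RNA, with 2 biological replicates of each. No transgene, deletion or treatment separated the groups. The methods also name a control IgG, which was not analysed here, so RNA carried along without the antibody's target could not be measured. The question put to these 4 libraries was which retinal RNAs are recovered with YTHDF2, and the RIP against input comparison of the structured RNAs is one view of it.

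YTHDF2 is a cytoplasmic reader protein that binds N6-methyladenosine (m6A) in RNA and brings its bound mRNAs to the deadenylation machinery. m6A is placed on mRNA mostly within a short motif with a GGAC core. Polymerase III transcripts are short, carry no poly(A) tail, end in a run of U and fold into stable structures that are covered by their own proteins. 7SK RNA (Rn7sk) holds the elongation factor P-TEFb in an inactive nuclear particle, and 7SL RNA (Rn7s1, Rn7s2) is the scaffold of the signal recognition particle, which guides nascent secretory proteins to the endoplasmic reticulum. RNase MRP RNA (Rmrp) and RNase P RNA (Rpph1) are related ribozyme RNAs that act on precursor rRNA and precursor tRNA. Y RNAs (Rny1, Rny3) are bound by the Ro and La proteins, and vault RNA (Vaultrc5) is a component of the vault, a large cytoplasmic ribonucleoprotein.

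The libraries held between 19530226 and 39499994 gene counts. Overlapping genes at a ribosomal RNA repeat took 55.5% and 55.0% of the input counts and 85.3% and 87.8% of the RIP counts, which left 4088424 and 4175459 protein-coding counts in the input and 2203538 and 2083594 in the RIP. Retinal markers were present, with all 12 of the list counted in both inputs. Their summed level was 828 and 731 CPM (counts scaled to the library total, here without the rRNA genes) in the input, against 2503 and 2158 in the RIP. Blood and vessel markers went from 7.23 and 4.78 to 18.2 and 16.85 on this scale, and microglia markers from 4.27 and 2.51 to 10.1 and 12.2. Pigment epithelium markers also stood higher in both RIP libraries, and lens markers only in RIP replicate 2. The rise was thus not particular to retinal genes, and enrichment of them by the antibody was not tested. This scale is a share of all counts outside the rRNA genes. Of these, the 9 structured RNAs alone took 25.3% and 24.5% in the input against 2.44% and 4.33% in the RIP. Lens markers summed to at most 2.64 on the same scale, pigment epithelium markers to at most 4.30, blood and vessel markers to at most 18.2 and microglia markers to at most 12.2. Among the defining markers Cryaa, Rpe65 and Tyr had no count in any library. In tissue RNA of this kind, fewer cells of a type and less RNA per cell cannot be told apart.

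The structured RNAs were abundant in the input and scarce in the RIP. Together they took 11.3% and 11.0% of all counts in the inputs, against 0.358% and 0.526% in the RIP libraries, so that both RIP libraries lay far below both inputs. The 95% Wilson intervals, which cover counting error only, were 0.356% to 0.361% and 0.523% to 0.529% for the RIP libraries. Set against mRNA, there were 1.09 and 0.956 counts of structured RNA per protein-coding count in the input, against 0.0317 and 0.0629 in the RIP. As a share of the counts outside the rRNA genes they took 25.3% and 24.5% in the input against 2.44% and 4.33% in the RIP. The size of the fall thus depended on the denominator and was smallest on this last scale, where the groups still did not overlap. All values are relative to the other RNAs of the same library, and the total counts both 7SL genes, which are identical in sequence.

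In the edgeR quasi-likelihood test over 13632 genes, 9 of 9 structured RNAs were tested, 8 were lower in the RIP and 0 were higher at a Benjamini-Hochberg adjusted p below 0.05. Over all tested genes 9.78% were lower and 3.48% higher. Rn7s1 and Rn7s2, both among the 8, are identical in sequence and are not separate measurements. The RNAs were chosen with earlier results of these data known, so these counts describe the list and do not test it. None of the 9 was higher at an unadjusted p below 0.05 either, and DESeq2 likewise called 8 lower and 0 higher. Their median log2 fold change was −4.61, beside −0.05 for all tested genes. For all 9, both RIP libraries lay below both inputs in normalised counts (CPM, scaled to equal library size by edgeR's trimmed mean of M-values), an arrangement that 31.3% of all tested genes also had. The 8 that passed were between 7.87-fold and 95.6-fold lower, and the exception was Terc. For 1 value at a time, 2 against 2 libraries allow no two-sided exact permutation p below 0.333, so the calls rest on the spread shared across genes.

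**Figure D1:**
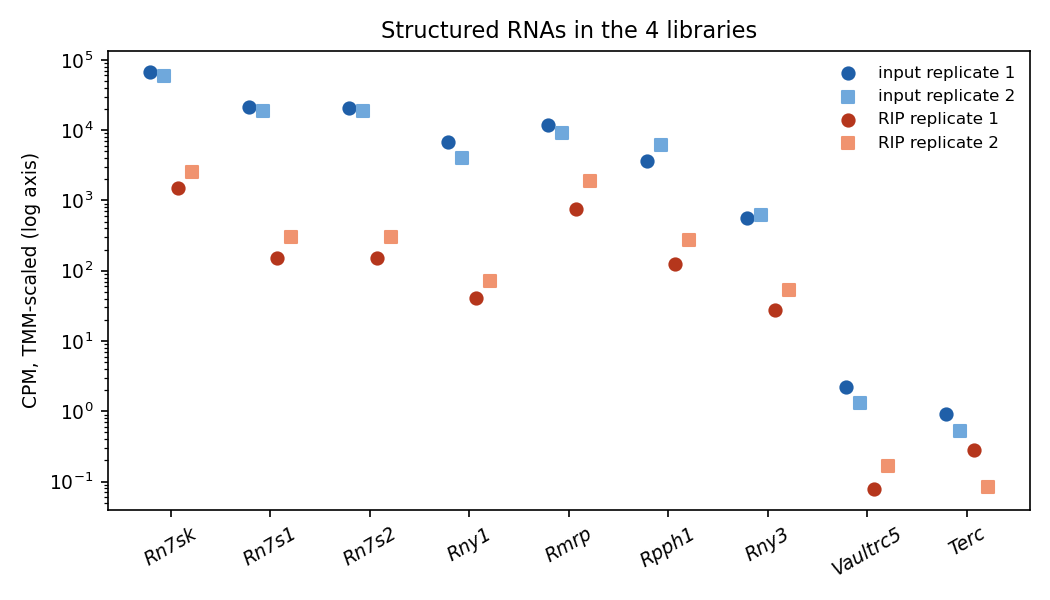
Level of each structured RNA (x axis, ordered by input FPKM) in CPM after scaling by edgeR's trimmed mean of M-values (y axis, log axis), with 1 point per library, blue for input and red for RIP. Both red points lie below both blue points for all 9 RNAs, and Vaultrc5 and Terc sit below 3 CPM in every library.

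7SK RNA was the most abundant of them. Rn7sk lies at chr9:78175303-78175633 on the minus strand of GRCm38 and spans 331 nt. It had 2272954 and 2025853 input counts against 38203 and 60710 RIP counts, or 63564 ± 6457 CPM (SD, n = 2) against 2018 ± 714 CPM (SD, n = 2). The groups did not overlap, and Rn7sk was 31.5-fold lower in the RIP, with a log2 fold change of −4.98 (SE 0.56) and an edgeR adjusted p of 0.00153. A pair of unnamed genes that resemble 7SK, Gm24447 and Gm26315, were counted beside it. They are shown because a read from the shared stretch cannot be assigned by sequence to one of the genes. Bases 1 to 241 of Rn7sk are identical to bases 1 to 241 of Gm24447 and are printed in capitals. The first 300 bases of each are given 5′ to 3′ as DNA letters from GENCODE M21 transcripts, as are all sequences here, at chr9:78175334-78175633 (minus strand) and chr15:93234363-93234662 (plus strand) of GRCm38.
Rn7sk: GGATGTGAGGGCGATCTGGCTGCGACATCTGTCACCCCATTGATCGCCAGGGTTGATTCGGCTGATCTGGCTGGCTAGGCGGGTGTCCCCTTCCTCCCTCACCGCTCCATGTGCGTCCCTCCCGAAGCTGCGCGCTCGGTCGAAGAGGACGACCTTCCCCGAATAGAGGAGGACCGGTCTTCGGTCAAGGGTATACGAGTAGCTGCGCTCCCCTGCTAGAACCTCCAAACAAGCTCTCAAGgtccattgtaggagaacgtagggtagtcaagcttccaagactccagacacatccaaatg
Gm24447: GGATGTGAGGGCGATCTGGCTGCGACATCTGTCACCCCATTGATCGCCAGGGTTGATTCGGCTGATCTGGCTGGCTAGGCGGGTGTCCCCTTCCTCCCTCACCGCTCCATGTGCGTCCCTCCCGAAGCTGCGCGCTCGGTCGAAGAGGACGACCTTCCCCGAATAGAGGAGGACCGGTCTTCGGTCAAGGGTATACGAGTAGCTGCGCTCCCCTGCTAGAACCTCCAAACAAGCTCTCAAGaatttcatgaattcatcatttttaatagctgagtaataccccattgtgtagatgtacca

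Gm24447 had 549246 and 500464 input counts against 7999 and 11195 RIP counts, and its log2 fold change of −5.31 (edgeR adjusted p 0.00101) was close to that of Rn7sk. Gm26315, which shares an unbroken run of 235 nt with Rn7sk, had 542910 and 491792 against 7622 and 10816 counts, and was also lower (log2 fold change −5.35, edgeR adjusted p 0.00101). Within each library Gm24447 held 0.242 and 0.247 counts per Rn7sk count in the input and 0.209 and 0.184 in the RIP. Between the geometric means of the groups this ratio differed by 1.24-fold, and that of Gm26315 to Rn7sk by 1.28-fold, both far less than the fall of the genes themselves. How the submitters counted reads that match several positions is not given in the sources used here, so the split among the 3 genes is uncertain, and a read could have been counted for more than 1 of them, which would raise any sum over copies. Summed over the 3 genes, 7SK sequence took 8.52% and 8.33% of the input counts and 0.276% and 0.332% of the RIP counts, as listed.

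7SL RNA fell further. Rn7s1 and Rn7s2 lie on chromosome 12, and their 300 nt are identical from end to end. Rn7s1 had 708796 and 641764 input counts against 3797 and 7210 RIP counts. Rn7s2 had 700288 and 635349 against 3785 and 7231. Their counts stood in a ratio between 0.997 and 1.01 in every library, so levels of the separate genes cannot be told apart. Rn7s1 was 88.8-fold lower in the RIP (log2 fold change −6.47, SE 0.60, edgeR adjusted p 0.000940), and the value of Rn7s2 was −6.45 by the same test. The miRNA gene Gm47299 overlaps Rn7s2 by 77 nt on the same strand and had 9866 and 7861 input counts against 17 and 1 RIP counts. A further 7SL-like gene, Rn7s6, shares an unbroken run of 173 nt with Rn7s1.

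Rn7s6 had 133552 and 106937 input counts and 615 and 1105 RIP counts, with a log2 fold change of −6.66 (edgeR adjusted p 0.000876). It held between 0.153 and 0.188 counts per Rn7s1 count over the 4 libraries. Summed over the 3 genes, 7SL sequence took 3.91% and 3.82% of the input counts and 0.0420% and 0.0624% of the RIP counts, sums that hold the same molecules more than once if shared reads were counted for each gene. The fall of 7SL was larger than that of 7SK within every comparison of libraries. Rn7sk held 3.21 and 3.16 counts per Rn7s1 count in the inputs but 10.1 and 8.42 in the RIP libraries, a 2.89-fold rise of the ratio without overlap of the groups (exact permutation p 0.333, two-sided, the smallest possible). Such ratios need no scaling between libraries, though these pairs were picked with their values in view. The ratio of Rn7s1 to its identical copy Rn7s2 did not overlap between groups either, at a difference of 1.01-fold. Lack of overlap alone therefore says little, and the size of the difference has to be read with it.

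The ribozyme RNAs were abundant in the input too. Rmrp is 271 nt long at chr4:43492788-43493058 on the minus strand, and Rpph1 is 319 nt long at chr14:50807449-50807767 on the minus strand of GRCm38. Their longest common run is 9 nt, far shorter than those of the 7SK and 7SL copies. The sequences are shown because they differ in the core of the m6A motif, GGAC, in capitals. Rmrp holds it at 2 places, and Rpph1 holds none, here with its first 300 bases (chr14:50807468-50807767).
Rmrp: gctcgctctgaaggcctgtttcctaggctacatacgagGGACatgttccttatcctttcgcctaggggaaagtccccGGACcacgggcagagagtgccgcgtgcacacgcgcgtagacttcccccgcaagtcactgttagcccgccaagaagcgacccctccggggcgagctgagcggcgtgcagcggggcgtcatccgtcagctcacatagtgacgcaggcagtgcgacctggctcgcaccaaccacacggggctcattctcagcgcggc
Rpph1: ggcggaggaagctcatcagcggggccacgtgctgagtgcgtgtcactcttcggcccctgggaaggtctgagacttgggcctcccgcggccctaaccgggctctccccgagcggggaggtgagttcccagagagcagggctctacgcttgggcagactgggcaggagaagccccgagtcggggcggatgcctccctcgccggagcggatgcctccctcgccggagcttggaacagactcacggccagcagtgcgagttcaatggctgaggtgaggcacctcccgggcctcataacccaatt

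Rmrp had 398718 and 314904 input counts against 19215 and 46254 RIP counts, or 10561 ± 1966 against 1341 ± 821 CPM (SD, n = 2 each). It was the least reduced of the abundant structured RNAs, 7.87-fold lower with a log2 fold change of −2.98 (SE 0.55, edgeR adjusted p 0.0113). As a share of the counts outside the rRNA genes Rmrp stood at 2.27% and 1.93% in the input and 0.672% and 1.53% in the RIP, a much smaller difference in which both RIP libraries still lay below both inputs. Its RIP libraries differed by more than those of the other abundant RNAs, and the log2 fold change was −2.37 without RIP replicate 1 and −3.71 without RIP replicate 2. Ccdc107 overlaps Rmrp by 159 nt on the opposite strand and had at most 54 counts in a library. Rpph1 had 119899 and 211277 input counts and 3198 and 6569 RIP counts, and was 24.4-fold lower with a log2 fold change of −4.61 (SE 0.57, edgeR adjusted p 0.00213). Its log2 fold change was −4.10 without RIP replicate 1 and −5.21 without RIP replicate 2. The protein-coding gene Ccnb1ip1, which overlaps Rpph1 by 284 nt on the same strand, was listed at 0 in the 4 libraries. There were 3.33 and 1.49 Rmrp counts per Rpph1 count in the input and 6.01 and 7.04 in the RIP, a 2.92-fold difference whose groups did not overlap (exact permutation p 0.333, two-sided). The input libraries themselves differed in this ratio, with Rmrp higher and Rpph1 lower in replicate 1.

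The Y RNAs lie close to each other on chromosome 6, Rny1 at chr6:47788069-47788180 on the minus strand and Rny3 at chr6:47781624-47781725 on the plus strand of GRCm38. They are 112 and 102 nt long. Both are shown whole, with the longest run that they share, 12 nt, in capitals, and both end in TTTT, the form of a polymerase III terminator.
Rny1: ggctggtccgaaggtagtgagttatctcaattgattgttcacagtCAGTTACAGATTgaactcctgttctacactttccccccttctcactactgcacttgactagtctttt
Rny3: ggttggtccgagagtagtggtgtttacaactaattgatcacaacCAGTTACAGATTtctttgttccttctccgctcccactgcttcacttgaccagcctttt

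Rny1 had 226525 and 139627 input counts against 1040 and 1743 RIP counts. It showed the largest fall of the 9 structured RNAs, 95.6-fold, with a log2 fold change of −6.58 (SE 0.59, edgeR adjusted p 0.000876), and 61 of the 13632 tested genes had a lower value. Rny3 had 18815 and 21425 input counts against 701 and 1292 RIP counts, and was 14.6-fold lower (log2 fold change −3.87, SE 0.46, edgeR adjusted p 0.00176). Rny1 thus outnumbered Rny3 by 12.04 and 6.52 to 1 in the inputs but by only 1.48 and 1.35 to 1 in the RIP libraries. This 6.26-fold change of the ratio was the largest among the 3 pairs of distinct RNAs compared and left no overlap between groups (exact permutation p 0.333, two-sided). The Y RNAs are also the least GC-rich of the 9, at 43.75% and 45.1%.

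**Figure D2:**
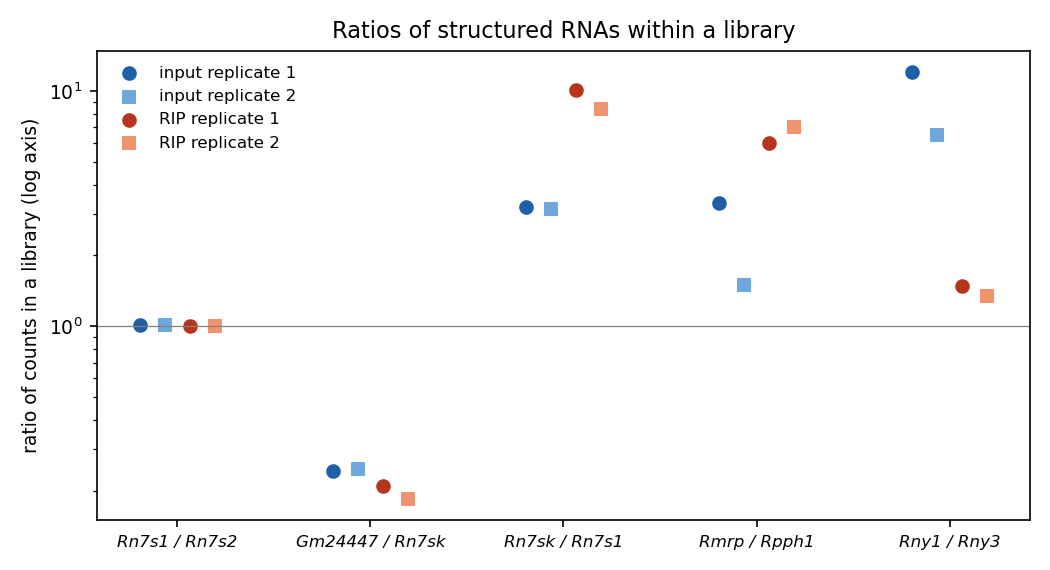
Ratio of raw counts of the first gene to the second within each library (y axis, log axis) for 5 pairs, with 1 point per library. Rn7s1 and Rn7s2 stay near 1, and Gm24447 stays near 0.2 of Rn7sk. Input and RIP do not overlap for any of the 5 pairs, the identical Rn7s1 and Rn7s2 included (1.01-fold between groups). The distance is largest for the 3 pairs of distinct RNAs, with Rny1 over Rny3 going from 12.04 and 6.52 to 1.48 and 1.35.

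Vault RNA and telomerase RNA were rare in all libraries. Vaultrc5, 143 nt long at chr18:36801866-36802008 on the plus strand, had 74 and 45 input counts and 2 and 4 RIP counts. Its log2 fold change was −3.81 (SE 0.74, edgeR adjusted p 0.0136), and on pooled counts it was 14.4-fold lower with an exact 95% interval of 6.45 to 40.2 that covers counting error only. The call was lost without RIP replicate 1 (adjusted p 0.177) and without RIP replicate 2 (adjusted p 0.108). Terc, the template RNA of telomerase, is 423 nt long at chr3:96414437-96414859 on the minus strand and had 31 and 18 input counts against 7 and 2 RIP counts. It did not pass the test, with a log2 fold change of −1.98 (SE 0.90, unadjusted p 0.0568, edgeR adjusted p 0.181). The value was −2.97 without RIP replicate 1, −1.28 without RIP replicate 2 and −0.78 with limma on log2(FPKM + 1). Pooled counts gave a 3.97-fold lower level with an exact interval of 1.93 to 9.18. As a share of the counts outside the rRNA genes Terc overlapped between groups, at 0.000176% and 0.000110% in the input and 0.000245% and 0.000066% in the RIP, and the direction of its mean turned. A change of Terc was not called by edgeR, and whether depth was the reason was not tested.

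**Figure D3:**
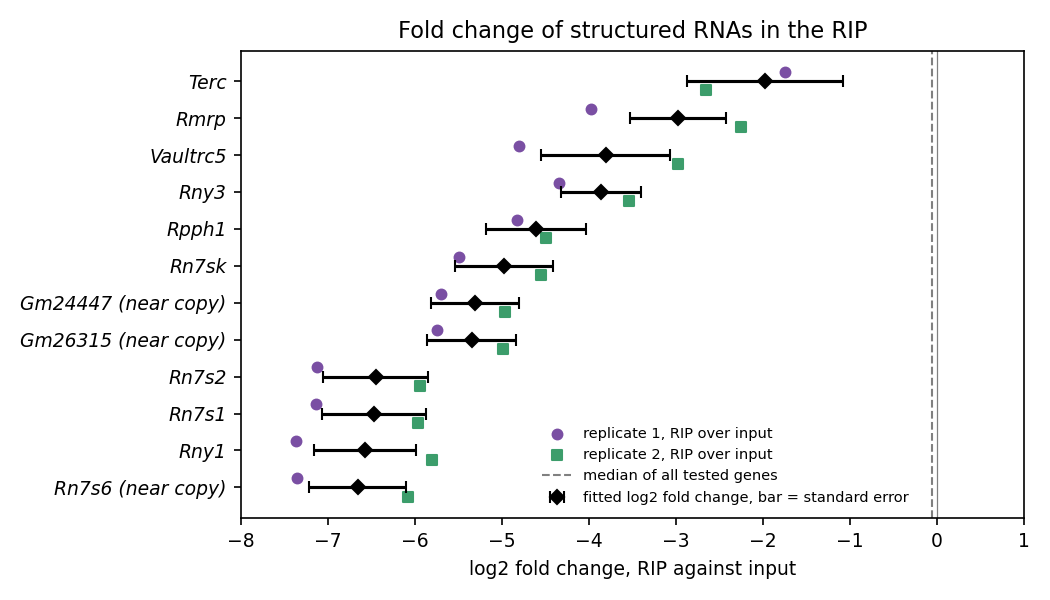
Log2 fold change in the RIP against input (x axis) of the 9 structured RNAs and 3 near copies (y axis), as fitted by edgeR (diamonds, bars are standard errors) and for each replicate's own RIP over its input (circle and square). The standard errors were derived from the F statistic of the fit. The fitted values run from −6.66 for Rn7s6 to −1.98 for Terc, all left of the dashed median of all tested genes at −0.05. Replicate 2 lies right of replicate 1 for all but Terc.

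Levels per transcript length, in FPKM (fragments per kilobase of transcript, scaled to library depth), ordered the RNAs differently in input and RIP. In the input Rn7sk led with 164025 ± 2342 FPKM (SD, n = 2), followed by Rn7s1 at 56896 ± 179 and Rn7s2 at 56270 ± 96.4. Rny1 at 41180 ± 11186 and Rmrp at 33185 ± 3305 FPKM came next, and their libraries overlapped. Below them stood Rpph1 at 13321 ± 6013, Rny3 at 5046 ± 799, Vaultrc5 at 10.4 ± 2.90 and Terc at 1.41 ± 0.468 FPKM, each apart from its neighbour. In the RIP, Rn7sk at 6116 ± 945 and Rmrp at 4833 ± 2099 FPKM overlapped at the top. The 7SL genes, at 744 ± 209 and 743 ± 206, Rpph1 at 617 ± 204, Rny1 at 510 ± 97.7 and Rny3 at 399 ± 103 FPKM followed, and each overlapped with the next. A span from 5046 to 56896 FPKM over the 7SL, Rpph1 and Y RNA genes in the input was thus a span from 399 to 744 FPKM in the RIP. Vaultrc5 at 0.733 ± 0.370 and Terc at 0.420 ± 0.410 FPKM were lowest and overlapped.

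Sequence features were read from the transcripts. The RNAs were chosen as structured RNAs, so short length and stable folding are not independent of the choice. All were short, from 102 to 423 nt, but other features varied among the RNAs. The median GC content was 62.3%, which is the value of the identical Rn7s1 and Rn7s2. It was 50.4% for 183 other genes of that length range with at least 50 counts on average in the inputs. Those genes include the near copies of 7SK and 7SL. RNAfold gave minimum free energies between −26.6 and −47.9 kcal/mol per 100 nt with a median of −39.2, beside −30.9 for the same 183 genes. Rny1 and Rny3 were exceptions, with GC contents under that comparison median and energies of −30.6 and −26.6 kcal/mol per 100 nt. GGAC was searched on the RNA strand only, and GGACT, which contains it, as a longer form. Rn7sk, Rmrp and Terc each held GGAC at 2 places and Rn7s1 and Rn7s2 at 1, whereas Rpph1, Rny1, Rny3 and Vaultrc5 held none. Only Terc held GGACT, once. Of the transcript starts of equal length, 71.2% held GGAC at the length of Rn7s1 and 33.0% at the length of Rny3. The RNAs without GGAC had log2 fold changes from −6.58 to −3.81 and those with it from −6.47 to −1.98, so the groups overlapped. A match of letters is a description and not a methylated site.

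Short RNAs as a whole were lower in the RIP. Other tested genes of 102 to 423 nt numbered 322, of which 158 (49.1%) were lower and 4 (1.24%) higher, with a median log2 fold change of −2.37. Of the 22 protein-coding genes in this range 19 were lower (86.4%, median −2.63). The median was −1.90 over 213 genes under 200 nt and rose from −2.63 over 269 genes of 200 to 499 nt to −1.92 at 500 to 999 nt, −0.71 at 1000 to 1999 nt, −0.10 at 2000 to 3999 nt and 0.40 over 5178 genes of 4000 nt or more. Length therefore moved with the fold change across genes, and its part in the fall of the structured RNAs was not tested. Among the 322 genes, 31 (9.63%) lay at or below the structured RNA median of −4.61. The near copies Gm24447, Gm26315 and Rn7s6 are among these 31.

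**Figure D4:**
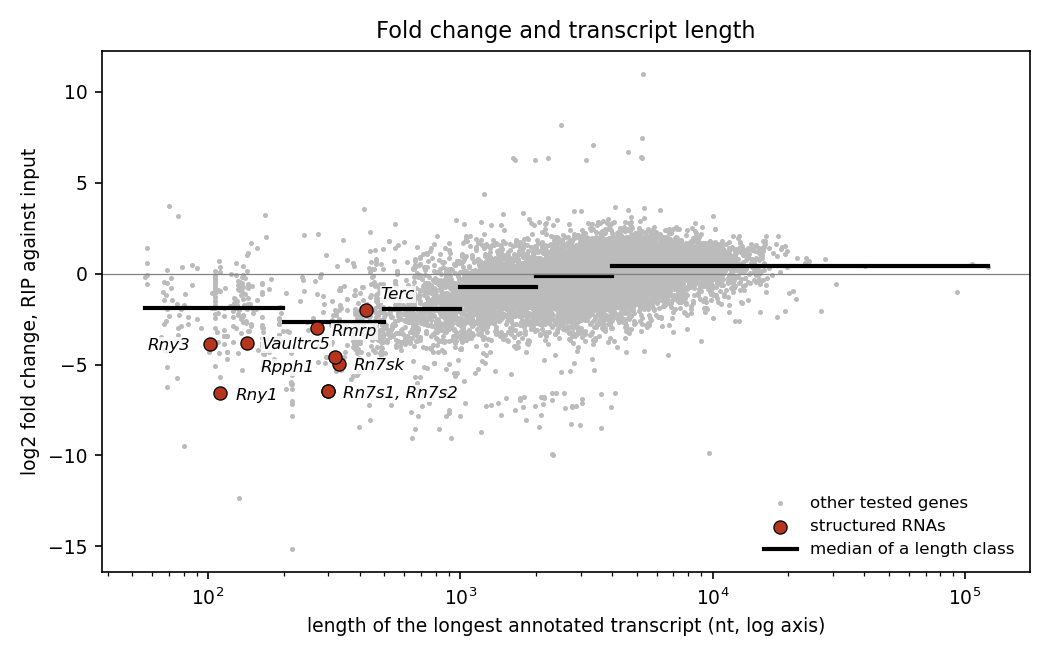
Log2 fold change in the RIP against input (y axis) by length of the longest annotated transcript (x axis, log axis) for the tested genes with an annotated length, grey, and the 9 structured RNAs, red. Black bars are medians of length classes, from −2.63 at 200 to 499 nt to 0.40 at 4000 nt or more, and the structured RNAs lie at or below the bars of their classes except Terc.

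Other small RNA families also held many genes that were lower in the RIP. Of 70 tested snRNA genes 36 (51.4%) were lower and 0 higher in edgeR (0 higher also in DESeq2 and at an unadjusted p below 0.05), with a median log2 fold change of −2.48, and of 89 snoRNA genes 29 (32.6%) were lower and 2 higher, with a median of −1.73. The 13 scaRNAs, which guide modification of snRNAs in Cajal bodies, had 3 lower and 3 higher with a median of −1.12. The annotation holds further genes of the classes misc_RNA, ribozyme and scRNA, 585 in all with the 9, of which 133 had any count. Of the 9 tested genes besides the structured RNAs, 6 were lower and 0 higher in edgeR (0 higher also in DESeq2 and at an unadjusted p below 0.05), and the group's median was −4.93. These include the 3 near copies already described. No test compared these families with each other.

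The mRNAs of the proteins that bind these RNAs, and of RNA polymerase III itself, had fold changes on both sides of 0, and few were called. Of 66 tested genes in 7 lists, 6 were lower and 1 was higher, with a median log2 fold change of −0.30. This is 6 of 66 against 9.78% lower over all genes, and 1 of 66 against 3.48% higher. Neither count exceeded the share over all genes. In simulated data the same fit called 52% of genes given a log2 change of 2 in size. A gene that was not called may therefore still differ. These counts depended on the model. A fit with the replicate number as a block called 12 lower and 4 higher and DESeq2 called 10 and 2. Without input replicate 1 the counts were 18 and 7, without input replicate 2 they were 14 and 9, without RIP replicate 1 they were 0 and 0 (11 and 2 at an unadjusted p below 0.05), and without RIP replicate 2 they were 1 and 0 (7 and 1 at an unadjusted p below 0.05).

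By particle, none of the 7 tested 7SK and P-TEFb protein genes passed in edgeR (1 lower and 2 higher at an unadjusted p below 0.05, 1 lower and 1 higher in DESeq2). Over the 4 libraries the one with the highest mean CPM, Ccnt2, a cyclin of P-TEFb, had 164 and 442 input counts and 566 and 528 RIP counts (log2 fold change 1.32, edgeR adjusted p 0.0988). Leaving out input replicate 1 gave 0.78 and leaving out input replicate 2 gave 2.17, and it was higher with the replicate block (edgeR adjusted p 0.0253) and in DESeq2 (adjusted p 0.0395). For the signal recognition particle 1 of 8 was lower, Srp19, with 185 and 255 against 32 and 56 counts (log2 fold change −1.85, edgeR adjusted p 0.0303). This call was lost with no filter on low counts (edgeR adjusted p 0.0726) and with limma on log2(FPKM + 1) (adjusted p 0.0509). Its log2 fold change was −1.41 without RIP replicate 1 and −2.29 without RIP replicate 2. Leaving out a RIP library lost this call and, as the counts above show, most others in these lists, so Srp19 is not alone in this. Among 10 tested RNase P and RNase MRP proteins, Rpp21 was lower, with 126 and 100 against 12 and 17 counts (log2 fold change −2.49, edgeR adjusted p 0.0138). Telomerase and H/ACA proteins had 2 of 8 lower, both components of the H/ACA core. Gar1 had 1119 and 857 input counts and 98 and 56 RIP counts (log2 fold change −3.23, edgeR adjusted p 0.00238), and Nop10 had 485 and 433 against 56 and 62 (−2.50, adjusted p 0.00402). Of the 3 Ro and La genes none passed in edgeR (1 lower at an unadjusted p below 0.05 and 1 in DESeq2). Ssb, which encodes La, had 149 and 805 against 78 and 75 counts (log2 fold change −2.17, adjusted p 0.0696), and its inputs differed more from each other than input replicate 1 did from the RIP. The log2 fold change of Ssb became −2.92 with input replicate 1 left out and −0.52 with input replicate 2 left out, and it was lower with the replicate block (edgeR adjusted p 0.00957) and in DESeq2 (adjusted p 0.00592). None of the 3 vault protein genes passed in edgeR (1 higher at an unadjusted p below 0.05, 0 in DESeq2), and Mvp, the major vault protein, had 27 and 43 against 30 and 26 counts (log2 fold change 0.14, edgeR adjusted p 0.894).

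Among 27 genes of RNA polymerase III and its factors, 2 were lower and 1 higher, with a median log2 fold change of 0.03. Snapc5, a subunit of the complex that recognises snRNA-type promoters such as those of 7SK and U6, had 489 and 465 input counts and 14 and 20 RIP counts, a log2 fold change of −4.34 (SE 0.43, edgeR adjusted p 0.00108). Polr3gl, a polymerase III subunit, had 411 and 238 against 32 and 48 counts (log2 fold change −2.56, edgeR adjusted p 0.0103). Gtf3c4, a subunit of TFIIIC, was higher, with 269 and 202 against 452 and 407 counts (log2 fold change 1.32, edgeR adjusted p 0.0399). The lower genes had longest transcripts of 729 nt (Rpp21), 1109 nt (Nop10), 1228 nt (Snapc5), 1271 nt (Gar1), 1427 nt (Polr3gl) and 3295 nt (Srp19), and the higher gene Gtf3c4 one of 7127 nt. The part of length in these values was not tested.

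**Figure D5:**
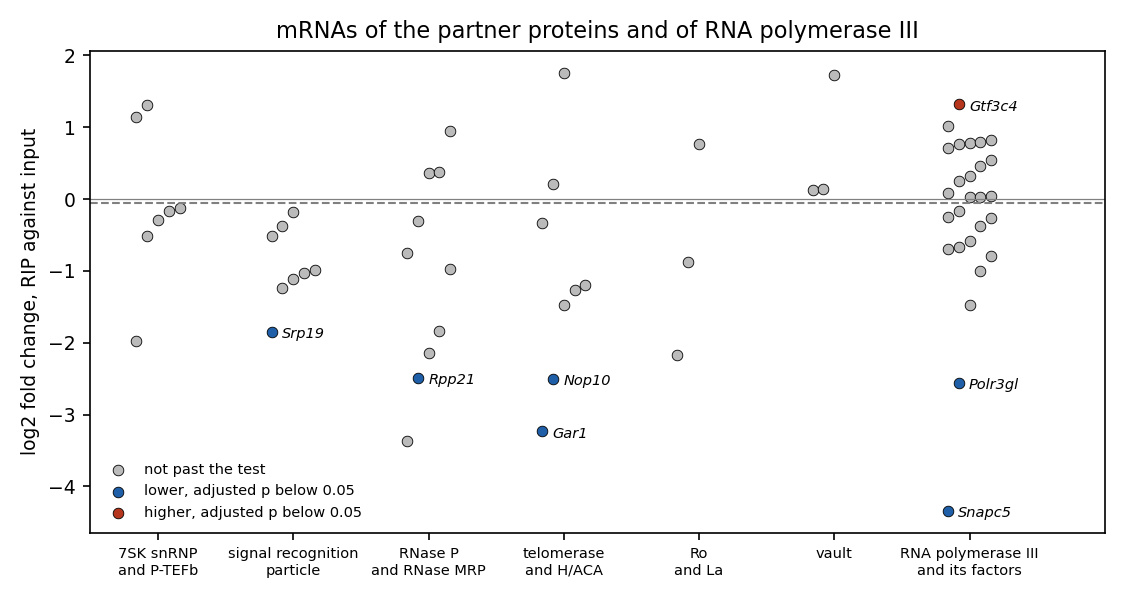
Log2 fold change in the RIP against input (y axis) of the 66 tested protein-coding genes in 7 lists (x axis, 1 point per gene), coloured by the edgeR call, with the dashed line at the median of all tested genes. Values spread from −4.34 for Snapc5 to 1.76, and 6 blue points and 1 red point pass the test.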

How the data were processed

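RNA of 2 input and 2 YTHDF2 RIP samples was made into libraries with a TruSeq stranded kit. The submitters' processing notes name STAR 2.5, HTSeq and the GRCm38 build. The deposited table holds the authors' counts per gene (52550 genes, not normalised) and, beside them, the authors' FPKM values. The annotation release and the handling of reads with several matches are not given in the sources used here. Groups came from the sample labels, and where replicates are called biological no further detail is given.

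Counts were filtered with filterByExpr (minimum count 10, total 15), scaled by TMM and tested with edgeR 4.0.16 (glmQLFit, glmQLFTest, R 4.3.3) over 13632 genes, with Benjamini-Hochberg adjustment and a threshold of 0.05. Alternatives used DESeq2 1.42.0, other scalings and filters, a replicate block, limma 3.58.1 on log2(FPKM + 0.1) and log2(FPKM + 1), and each library left out. The SE given with an edgeR log2 fold change is the absolute log2 fold change over the square root of the quasi-likelihood F statistic. Scripts were tested on simulated data. The RNAs and gene lists were chosen with earlier results of these data known. Named protein genes were the called genes of a list, at most 3 by size of change, or else its gene with the highest mean CPM over the 4 libraries. Named near copies were the 3 most abundant other misc_RNA, ribozyme or scRNA genes.

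GENCODE M21 (GRCm38) gave transcripts, types and lengths (longest transcript) for 52403 gene IDs. Structures were predicted with RNAfold 2.7.2. The design text of the series ties each input to its RIP, so replicate numbers pair the samples. The replicate deviations of inputs and RIP libraries, however, did not correlate (Pearson −0.03, Spearman −0.03 over 13632 genes). Totals were 19530226 to 39499994 counts, and intervals cover counting error only.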

Additional observations from a re-analysis of the deposited data

How the results depend on the processing

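The count of structured RNAs lower in the RIP was 8 under library size alone, upper quartile factors, protein-coding counts as library size, DESeq2, no filter, the replicate block and limma at both pseudocounts, and 7 of 7 tested with at least 10 counts in every library, where Vaultrc5 and Terc were not tested. It ran from 7 to 8 with each library left out, the loss being Vaultrc5 without either RIP library. Their median log2 fold change ran from −5.21 to −4.10 with a library left out. Of 115 values of single structured RNAs under alternatives 113 kept their side of the threshold, 2 became weaker and 0 turned. Library size alone moved the median of all genes to 0.27.

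The protein gene counts were less stable. Those lower were 5 with no filter on low counts, 10 by DESeq2, 11 with at least 10 counts in every library and 12 with the replicate block, and those higher were 2 by library size alone, 2 by DESeq2, 3 with at least 10 counts and 4 with the replicate block, in place of 6 and 1. With a library left out they ran from 0 to 18 lower and from 0 to 9 higher. With a library left out Mvp ran from −0.14, without input replicate 1, to 0.49. The cause was not tested. The replicate block changed no call among the structured RNAs. Where 1 library was left out, the lone sample of a group was assumed to vary like the others. Vaultrc5 and Terc had at most 74 counts in a library, and the part of depth in their results was not tested. Having 2 replicates per group limits every p-value.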
